A study of Mus musculus with 8 samples.

Results

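The 35 genes described here carry fatty acids into heart muscle cells and oxidise them, or regulate that process. They form a list fixed by gene name, chosen with earlier results of these data known, and were matched by NCBI Gene number in the deposited tables. All 35 were listed in every library, out of 18215 gene numbers listed in all, and all 35 passed the filter on low counts. The study sequenced polyadenylated RNA from mouse hearts, 4 labelled Carns transgenic (TG) and 4 labelled wild type (WT), numbered 1 to 4 in each group by their titles (TG1 to TG4 and WT1 to WT4). Carns1 encodes carnosine synthase, which makes carnosine and other histidyl dipeptides from histidine and a partner amino acid. The question for these genes is whether their transcripts differed between hearts with and without the transgene. No diet, fasting state, age, sex, strain or promoter of the transgene is given in the labels, nor whether a group's 4 samples came from separate animals. The p-values therefore reflect only how much these particular samples vary, and that variation may be technical.

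Long-chain fatty acids are the main fuel of the adult heart. Lipoprotein lipase frees them from circulating triglyceride, CD36 and the fatty acid transport proteins help them across the membrane, and a binding protein carries them in the cytosol. An acyl-CoA synthetase activates them, the carnitine shuttle moves them into mitochondria, and each turn of beta-oxidation removes an acetyl-CoA and passes electrons to the electron transfer flavoprotein and to NAD. PPAR-alpha, a nuclear receptor that binds fatty acids, and its coactivator PGC-1-alpha drive transcription of many of these genes. Pdk4, Angptl4 and Ucp3 are known as genes that respond strongly to fasting and to circulating fatty acids.

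Total expected counts lay between 6261193 and 7897629 per library. They fell into 4 larger libraries (TG1, TG3, WT1 and WT2, at 7394143 counts or more) and 4 smaller ones (TG2, TG4, WT3 and WT4, at 6557621 counts or fewer), with 2 of each group in each set. The labels name no batch. Carns1 stood at 19071 to 24288 counts per 1000000 (CPM, scaled by edgeR's TMM method) in TG and 44.5 to 73.3 CPM in WT, so every library matched its label. Heart muscle was well represented, with 7 ventricular cardiomyocyte markers (Myh6, Tnnt2, Tnni3, Actc1, Myl2, Myl3 and Ryr2) summing to 64749 to 77742 CPM in TG and 62917 to 77582 CPM in WT. TG2 stood apart. Its 7 white fat markers summed to 766 CPM against 2.09 to 45.2 CPM in the other 7 libraries, all 7 of them highest in TG2, and leptin and Plin1 were at 3.49 and 40.3 CPM there. Its brown fat marker Ucp1 was at 124 CPM against at most 0.391 CPM elsewhere, and its 4 atrial markers summed to 856 CPM against 61.3 to 259.8 CPM. In these heart samples, fewer cells of a type and less RNA per cell cannot be told apart.

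None of the 35 genes differed between TG and WT at an adjusted p under 0.05 (edgeR quasi-likelihood test, Benjamini-Hochberg adjustment over 12670 genes). Over all genes tested, 2 were called, or 0.0158%, of which Carns1 was the 1 called higher (log2 fold change 8.38, SE 0.21, adjusted p = 1.07e-10). Every member had an adjusted p of 0.9995. None reached an unadjusted p under 0.05 either, against 442 of the 12670 genes. DESeq2 and limma with voom weights also called 0 of the 35. The log2 fold change, TG relative to WT, was positive for 19 members and negative for 16, with a median of 0.003 beside -0.002 over all genes tested. Leaving out TG2 also called 0 of the 35, with 14 values positive and a median of -0.024. It changed the sign of 9 values, none of them called, which became -0.03 for Acsl1, -0.02 for Acadm, -0.02 for Hadhb, -0.08 for Decr1, -0.14 for Ehhadh, -0.07 for Etfa, -0.08 for Etfdh, 0.03 for Mlycd and 0.03 for Acads. No member had all 4 TG libraries on one side of all 4 WT libraries, whereas 318 of the 12670 genes did (2.51%).

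**Figure D1:**
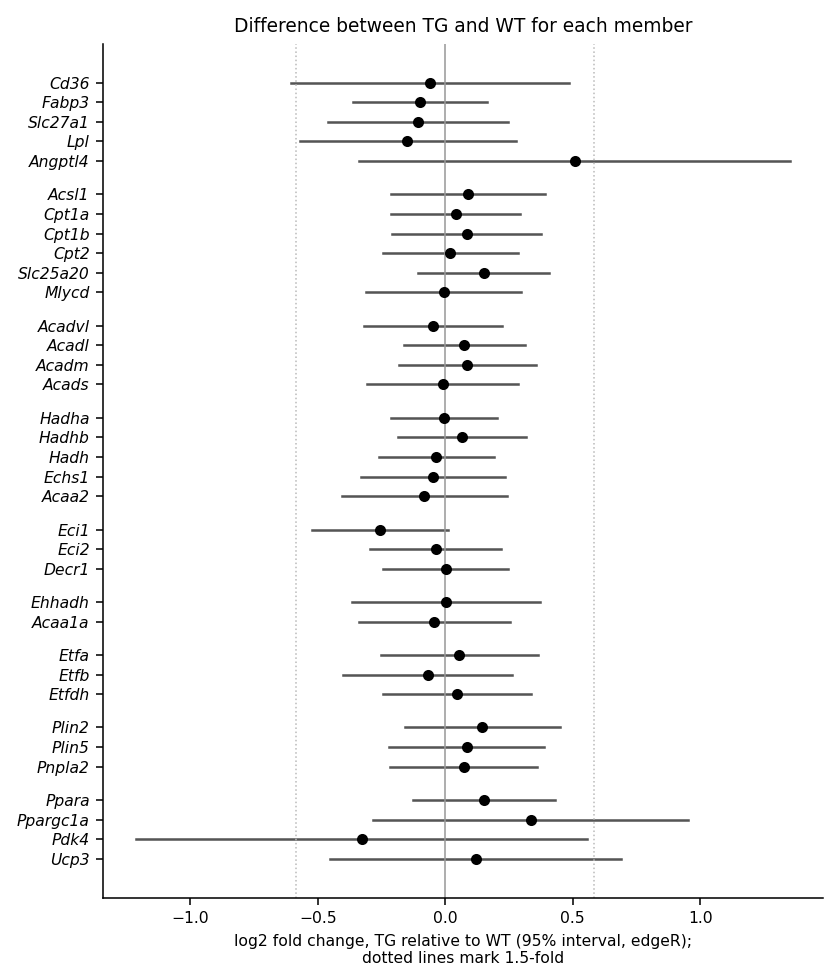
Log2 fold change of each of the 35 genes, TG relative to WT (points), with the 95% interval from the edgeR fit (lines), grouped by role from uptake at the top to regulators at the bottom. Every interval spans 0, and those of Angptl4 and Pdk4 are the widest.

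These 4 libraries per group limited how small a difference could be seen. The standard error of the log2 fold change lay between 0.097 (Hadha) and 0.409 (Pdk4), with a median of 0.135. For 30 of the 35 genes the 95% interval stayed within 1.5-fold in either direction, and for 33 within 2-fold. The exceptions at 1.5-fold were Cd36, Angptl4, Ppargc1a, Pdk4 and Ucp3, and those at 2-fold were Angptl4 and Pdk4. Differences of a size inside these intervals are not excluded, and their absence is not shown. The intervals are for each gene alone and are not limits of detection at the adjusted threshold.

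Levels between genes were compared per length, with the FPKM values (fragments per kilobase of transcript and per 1000000 fragments) that the authors deposited. They spanned from 4.42 FPKM for Ehhadh to 5291 FPKM for Fabp3 as means over the 8 libraries, and 23 of the 35 genes exceeded 100 FPKM. After Fabp3 came Hadhb (663 FPKM), Etfb (638 FPKM), Lpl (605.5 FPKM), Acaa2 (546 FPKM) and Acadvl (453 FPKM). The regulators Ppara (14.6 FPKM) and Ppargc1a (12.9 FPKM), the liver-type gene Cpt1a (13.5 FPKM) and Angptl4 (7.43 FPKM) stood among the lowest.

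**Figure D2:**
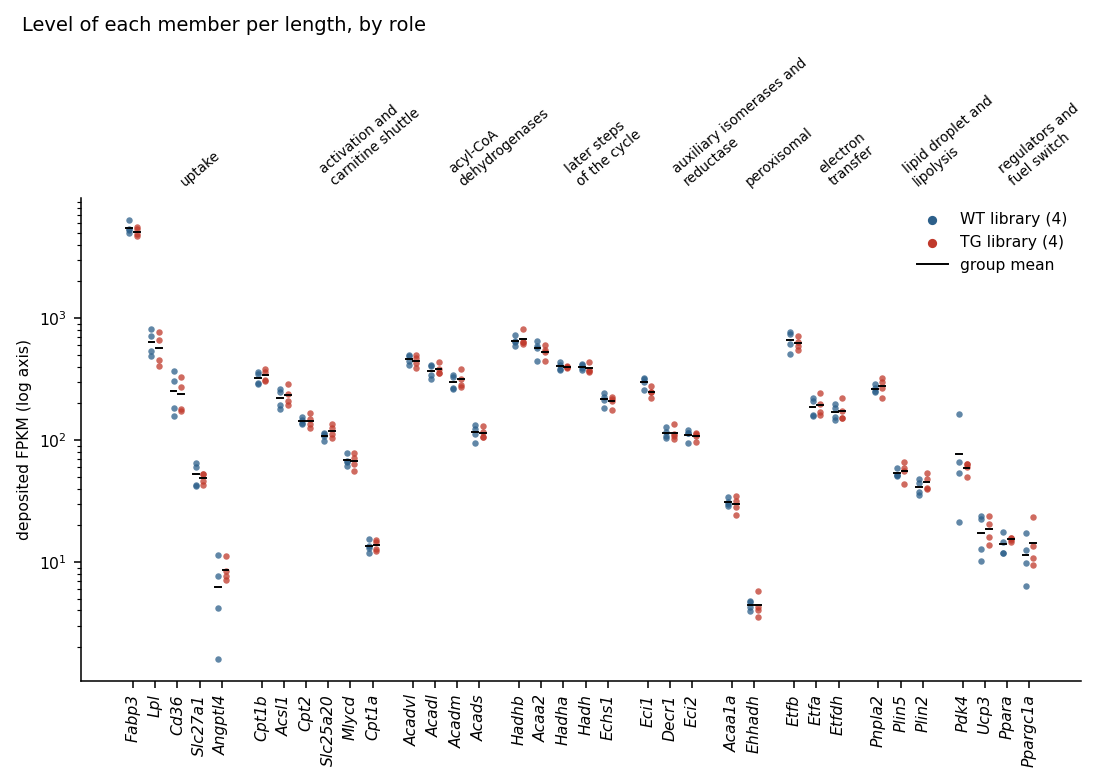
Deposited FPKM of each gene on a log axis, by role, with each point a library (blue WT, red TG) and the short lines the group means. Fabp3 lies between 4666 and 6327 FPKM in all 8 libraries, and the points of Angptl4 and Pdk4 are spread most within WT.

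None of the 5 uptake genes was called, and Fabp3 was the most abundant of them. Fabp3 (NCBI Gene 14077) encodes the heart's cytosolic fatty acid binding protein. Its level was 3543, 3554, 3225 and 2937 CPM in TG1 to TG4 and 3241, 4288, 3429 and 3247 CPM in WT1 to WT4. WT2 was the highest library and TG4 the lowest, and the other 6 lay between them with both groups mixed. The means were 3315 ± 295 CPM over the TG and 3551 ± 499 CPM over the WT libraries (SD, n = 4 each), a log2 fold change of -0.10 (SE 0.12, 95% interval -0.36 to 0.16).

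Lpl (16956), the lipase that frees fatty acids from circulating triglyceride, stood at 1905, 3131, 1706 and 2654 CPM in TG1 to TG4 and 2208, 2116, 3258.5 and 2825 CPM in WT1 to WT4. TG3 and TG1 were the lowest and WT3 and TG2 the highest, so the groups overlapped. The log2 fold change of Lpl was -0.15 (SE 0.195, 95% interval -0.57 to 0.28), and -0.32 without TG2. Fat tissue also expresses this gene, and the share of fat RNA in its TG2 value was not tested. Cd36 (12491), the fatty acid translocase, had 620.3, 1146.5, 652 and 939 CPM in TG1 to TG4 and 548, 671.5, 1047 and 1233 CPM in WT1 to WT4. Both groups held low values in their larger libraries and high values in their smaller ones. The mean level of Cd36 was close in the groups, at 839 CPM over the TG and 875 CPM over the WT libraries, with a log2 fold change of -0.06 (SE 0.25, 95% interval -0.61 to 0.49) that became -0.25 without TG2 and 0.15 without WT4. Slc27a1 (26457), fatty acid transport protein 1, averaged 137 ± 16.9 CPM over the TG and 148 ± 36.9 CPM over the WT libraries (SD, n = 4 each), a log2 fold change of -0.11 (SE 0.16, 95% interval -0.46 to 0.25).

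Angptl4 (57875) encodes a secreted inhibitor of lipoprotein lipase. Its transcript measured 16.8, 21.3, 14.04 and 14.4 CPM in TG1 to TG4 and 3.09, 8.46, 14.6 and 21.1 CPM in WT1 to WT4. The TG values spanned a narrower range than WT, and WT1 and WT2 lay below all of them and WT3 and WT4 fell within their range. The means were 16.6 ± 3.32 CPM over the TG and 11.8 ± 7.77 CPM over the WT libraries (SD, n = 4 each), and the log2 fold change was 0.51 (SE 0.39, 95% interval -0.34 to 1.35), unadjusted p = 0.217 in the edgeR fit. It was 0.18 without WT1 and 0.95 without WT4, and 0.37 without TG2.

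Transcripts of the enzymes that activate fatty acids and shuttle them into mitochondria had 5 of 6 log2 fold changes above 0, none called. Cpt1b (12895), the muscle-type carnitine palmitoyltransferase at the outer mitochondrial membrane and the control point of the shuttle, was at 1146, 896, 1088 and 866 CPM in TG1 to TG4 and 1024, 1103, 846 and 798 CPM in WT1 to WT4. TG1 was the highest and WT4 the lowest, and the order otherwise followed library size more than group. Its log2 fold change was 0.08 (SE 0.135, 95% interval -0.21 to 0.38), and 0.13 without TG2. The liver-type Cpt1a (12894) averaged 60.4 ± 6.04 CPM over the TG and 58.7 ± 5.87 CPM over the WT libraries (SD, n = 4 each). Per length, Cpt1b exceeded Cpt1a in every library, by a ratio of deposited FPKM of 18.6 (WT4) to 30.1 (TG1). That ratio averaged 25.0 ± 3.83 over the TG and 24.4 ± 4.84 over the WT libraries (SD, n = 4 each).

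Slc25a20 (57279), the translocase that exchanges acylcarnitine for carnitine across the inner membrane, measured 249, 199, 230.1 and 181 CPM in TG1 to TG4 and 205, 203, 196 and 169 CPM in WT1 to WT4. TG1 and TG3 were the highest of the 8, and TG2 and TG4 lay among the WT values. Slc25a20 had a log2 fold change of 0.15 (SE 0.12, 95% interval -0.11 to 0.41), unadjusted p = 0.229 in edgeR. Cpt2 (12896), which reforms acyl-CoA in the matrix, averaged 344 ± 49.8 CPM over the TG and 339.7 ± 33.7 CPM over the WT libraries (SD, n = 4 each). Acsl1 (14081), the main long-chain acyl-CoA synthetase of heart, averaged 926 ± 150.0 CPM over the TG and 871 ± 130.2 CPM over the WT libraries (SD, n = 4 each), and its log2 fold change was 0.09 (SE 0.14, 95% interval -0.21 to 0.39). Mlycd (56690), which degrades the CPT1 inhibitor malonyl-CoA, averaged 144 ± 24.9 CPM over the TG and 145 ± 21.0 CPM over the WT libraries (SD, n = 4 each), a log2 fold change of -0.005 (SE 0.14, 95% interval -0.31 to 0.30).

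The 4 acyl-CoA dehydrogenases, which take the first step of each oxidation cycle on chains of falling length, showed log2 fold changes between -0.05 and 0.09. Acadvl (11370), for very long chains, was at 1125, 940.0, 1062 and 835 CPM in TG1 to TG4 and 1109.5, 1143, 966 and 879.6 CPM in WT1 to WT4. The 4 larger libraries were the 4 highest, with WT2 at the top, and TG4 was the lowest. Its means were 991 ± 129 CPM over the TG and 1024 ± 123 CPM over the WT libraries (SD, n = 4 each). Acadm (11364), for medium chains, measured 579, 791, 602 and 643 CPM in TG1 to TG4 and 552, 565, 694 and 651 CPM in WT1 to WT4. TG2 was the highest, and the larger libraries of both groups were the 4 lowest. The log2 fold change of Acadm was 0.09 (SE 0.12, 95% interval -0.18 to 0.36), and -0.02 without TG2. Acadl (11363), for long chains, stood at 719, 852, 707 and 731 CPM in TG1 to TG4 and 662, 642, 792 and 760.2 CPM in WT1 to WT4, again with TG2 the highest of the 8. Its log2 fold change was 0.075 (SE 0.11, 95% interval -0.16 to 0.31), and 0.01 without TG2. Acads (11409), for short chains, averaged 216.5 ± 26.4 CPM over the TG and 218 ± 38.45 CPM over the WT libraries (SD, n = 4 each).

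The Acadm promoter is a textbook target of PPAR-alpha and of the estrogen-related receptors, so the bases before its start site are shown. RefSeq's promoter table (assembly GRCm38.p6) held 30 of the 35 genes. The 250 bases upstream of the Acadm start site, chr3:153944644-153944893 on the minus strand, are printed with capitals for a match to AAGGTCA, the core letters of the element that estrogen-related receptors bind, here on the opposite strand and 249 bases from the start site.
Acadm: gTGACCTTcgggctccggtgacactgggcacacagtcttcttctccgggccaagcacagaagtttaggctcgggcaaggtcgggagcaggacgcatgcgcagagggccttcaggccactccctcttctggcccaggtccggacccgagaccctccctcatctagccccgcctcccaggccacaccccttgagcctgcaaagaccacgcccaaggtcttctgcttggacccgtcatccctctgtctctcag
This motif, searched on both strands in windows from 250 bases before to 50 after the start site, was found in 1 of the 30 members, Acadm. It occurred in 5.38% of the 27025 windows in the table and in 3.88% of the 10058 that belong to tested genes. A direct repeat of AGGTCA with 1 base between, the strict form of the PPAR element, which can overlap AAGGTCA, was in 0 of the 30 and in 0.0497% of the windows of tested genes. GGGCGG was in 22 of the 30 (73.3%, beside 68.4% of tested genes) and CCAAT in 15 of the 30 (beside 42.6% of tested genes). These matches describe letters in a short window only.

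Genes of the later steps of the mitochondrial cycle had log2 fold changes between -0.08 and 0.065, none called. Hadhb (231086), the thiolase subunit of the trifunctional protein, was at 1366, 1659.7, 1311 and 1289 CPM in TG1 to TG4 and 1219.6, 1414, 1477 and 1267 CPM in WT1 to WT4. TG2 was the highest and WT1 the lowest, with the groups interleaved. Its log2 fold change was 0.065 (SE 0.115, 95% interval -0.185 to 0.315). Hadha (97212), the subunit with the hydratase and long-chain dehydrogenase activities, had the smallest standard error of the 35 genes. It averaged 1547 ± 66.1 CPM over the TG and 1552 ± 99.8 CPM over the WT libraries (SD, n = 4 each), a log2 fold change of -0.005 (SE 0.10, 95% interval -0.21 to 0.205).

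Hadha and Hadhb lie head to head, and the stretch between them is shown because the windows before both start sites are largely the same DNA. In RefSeq (GRCm38.p6) their start sites are 273 bases apart on chromosome 5. The 250 bases before the Hadha start site, chr5:30154981-30155230 on the minus strand, are printed with capitals for the 228 bases that also lie within 250 bases before the Hadhb start site on the plus strand.
Hadha: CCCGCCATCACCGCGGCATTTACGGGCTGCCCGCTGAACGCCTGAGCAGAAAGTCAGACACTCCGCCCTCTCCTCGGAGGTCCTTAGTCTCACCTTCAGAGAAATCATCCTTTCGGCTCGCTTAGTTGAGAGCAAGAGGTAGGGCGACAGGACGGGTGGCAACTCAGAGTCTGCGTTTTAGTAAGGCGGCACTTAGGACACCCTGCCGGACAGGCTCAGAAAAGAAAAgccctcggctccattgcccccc
Across the 8 libraries the log2 CPM of Hadha and Hadhb were weakly related, with Pearson's r = 0.26 (exact permutation p = 0.548, adjusted over 4 gene pairs 0.548) and Spearman's rho = 0.26 (exact permutation p = 0.536, adjusted 0.536). Without TG4 and WT4, the libraries farthest from the median of Hadha, r was -0.22. Each set of libraries by size holds 4 of them, too few for a value of its own.

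Hadh (15107), the short and medium chain hydroxyacyl-CoA dehydrogenase, averaged 699 ± 57.9 CPM over the TG and 716 ± 56.1 CPM over the WT libraries (SD, n = 4 each). Echs1 (93747), the short chain enoyl-CoA hydratase, averaged 311 ± 39.5 CPM over the TG and 321.5 ± 47.4 CPM over the WT libraries (SD, n = 4 each). Acaa2 (52538), the mitochondrial thiolase for medium chains, averaged 798 ± 112.5 CPM over the TG and 845 ± 162 CPM over the WT libraries (SD, n = 4 each), with a log2 fold change of -0.08 (SE 0.15, 95% interval -0.41 to 0.24). The differences between these means were smaller than the SD within a group.

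Among the auxiliary enzymes, which prepare unsaturated chains for the cycle, Eci1 had the smallest unadjusted p of the 35 genes. Eci1 (13177) encodes the mitochondrial enoyl-CoA isomerase. It measured 309, 262, 274 and 233 CPM in TG1 to TG4 and 348, 355, 318.5 and 264 CPM in WT1 to WT4. WT1, WT2 and WT3 were the 3 highest of the 8 and TG4 the lowest, but WT4 lay within the TG range. The means were 269.5 ± 31.5 CPM over the TG and 321 ± 41.5 CPM over the WT libraries (SD, n = 4 each), a log2 fold change of -0.25 (SE 0.12, 95% interval -0.52 to 0.01), unadjusted p = 0.06 and adjusted p = 0.9995 in edgeR. Leaving out any library gave values between -0.34 and -0.19. With the set of libraries (larger or smaller) as a covariate the log2 fold change was also -0.25 and not called (unadjusted p = 0.00686, adjusted p = 0.357 in edgeR). The related Eci2 (23986) averaged 161 ± 16.1 CPM over the TG and 165 ± 20.6 CPM over the WT libraries (SD, n = 4 each), and Decr1 (67460), the dienoyl-CoA reductase, had a log2 fold change of 0.003 (SE 0.11, 95% interval -0.24 to 0.25).

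The peroxisomal members, which shorten chains that mitochondria handle poorly, were among the lower of the 35 genes per length, and neither was called. Acaa1a (113868), the peroxisomal thiolase, stood at 62.9, 49.7, 57.3 and 41.9 CPM in TG1 to TG4 and 60.15, 57.0, 51.9 and 48.9 CPM in WT1 to WT4. TG1 was the highest and TG4 the lowest, so that TG spanned the whole WT range. Near-identical Acaa1b may share its reads, which leaves the level of Acaa1a uncertain. Ehhadh (74147), the peroxisomal bifunctional enzyme, averaged 13.5 ± 2.905 CPM over the TG and 13.4 ± 1.37 CPM over the WT libraries (SD, n = 4 each), a log2 fold change of 0.003 (SE 0.17, 95% interval -0.365 to 0.37).

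Electrons from the acyl-CoA dehydrogenases pass through the flavoprotein subunits encoded by Etfa and Etfb to the oxidoreductase encoded by Etfdh. Etfb (110826) had 659, 531, 588 and 484 CPM in TG1 to TG4 and 691, 697, 542 and 441 CPM in WT1 to WT4. Etfa (110842) had 242, 353.5, 252 and 282 CPM in TG1 to TG4 and 236, 240.2, 318 and 294 CPM in WT1 to WT4. In both groups the larger libraries were high for Etfb and low for Etfa, and the smaller libraries the reverse. The ratio of Etfb to Etfa in CPM was accordingly 2.33 to 2.93 in the larger libraries and 1.501 to 1.713 in the smaller ones. CPM is not corrected for transcript length, so this ratio describes the shift between the sets and not the relative level of the transcripts. Nor can it be set against the protein dimer, which holds 1 of each subunit. Because the libraries separate by size for both genes, a correlation of the pair over 8 libraries is not given. The 4 libraries in each set are too few to test it. Between TG and WT the log2 fold change was -0.07 (SE 0.15, 95% interval -0.40 to 0.26) for Etfb and 0.055 (SE 0.14, 95% interval -0.25 to 0.36) for Etfa. Etfdh (66841) averaged 401 ± 71.5 CPM over the TG and 388 ± 45.6 CPM over the WT libraries (SD, n = 4 each).

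The lipid droplet genes had log2 fold changes above 0 in 3 of 3, none called. Pnpla2 (66853), the adipose triglyceride lipase that starts hydrolysis of stored fat, stood at 812, 845, 726 and 567 CPM in TG1 to TG4 and 673, 807, 644 and 682 CPM in WT1 to WT4. TG2 was the highest and TG4 the lowest of the 8, with WT between. Its log2 fold change was 0.07 (SE 0.13, 95% interval -0.22 to 0.36), and 0.00 without TG2. Plin2 (11520), a droplet coat protein found in many tissues, measured 93.7, 101, 79.1 and 72.5 CPM in TG1 to TG4 and 71.5, 95.1, 65.6 and 80.85 CPM in WT1 to WT4. TG2, WT2 and TG1 were the highest and WT3 the lowest. Its log2 fold change of 0.15 (SE 0.14, 95% interval -0.16 to 0.45) became 0.06 without TG2, and the part of fat tissue in it was not tested. Plin5 (66968), the droplet protein of oxidative muscle, averaged 112 ± 21.1 CPM over the TG and 106 ± 12.1 CPM over the WT libraries (SD, n = 4 each), with a log2 fold change of 0.085 (SE 0.14, 95% interval -0.22 to 0.39).

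None of the 4 regulators and fuel-switch genes was called. Ppara (19013) encodes PPAR-alpha and measured 111, 111.5, 119.8 and 113.5 CPM in TG1 to TG4 and 109, 91.1, 127 and 83.0 CPM in WT1 to WT4. The TG values were tight, and WT lay on both sides of them. Ppara had a log2 fold change of 0.15 (SE 0.13, 95% interval -0.13 to 0.43), and the coefficient of variation of Ppara in CPM was 3.53% in TG and 19.1% in WT. Ppargc1a (19017) encodes PGC-1-alpha and stood at 73.3, 88.5, 63.8 and 149.6 CPM in TG1 to TG4 and 64.5, 43.3, 111.5 and 78.1 CPM in WT1 to WT4. TG4 and WT3 were the highest and WT2 the lowest. Its log2 fold change of 0.34 (SE 0.285, 95% interval -0.28 to 0.95) was 0.02 without TG4 and 0.60 without WT3, so single libraries set its size.

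Pdk4 (27273) encodes the pyruvate dehydrogenase kinase that shifts fuel use from glucose to fatty acids. It measured 227, 222, 214 and 170.2 CPM in TG1 to TG4 and 74.8, 195, 225.5 and 551 CPM in WT1 to WT4. The TG libraries lay close together, while WT1 was far below them and WT4 far above. The highest WT library exceeded the lowest 7.37-fold, against 1.33-fold in TG. The means were 208 ± 25.9 CPM over the TG and 261.5 ± 204 CPM over the WT libraries (SD, n = 4 each), and the log2 fold change was -0.33 (SE 0.41, 95% interval -1.21 to 0.56). Without WT4 it was 0.34, and without WT1 it was -0.64 (unadjusted p = 0.0484 in edgeR), so the direction for Pdk4 rests on single WT libraries.

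Angptl4 varied in the same WT libraries, with WT1 the lowest of the 8 and WT4 the highest in WT, a 6.82-fold range against 1.51-fold in TG. Ucp3 (22229), the uncoupling protein of muscle mitochondria, stood at 60.3, 38.9, 52.3 and 33.0 CPM in TG1 to TG4 and 25.0, 57.7, 31.3 and 56.1 CPM in WT1 to WT4. WT1 was again the lowest of the 8 and TG1 the highest, and the log2 fold change was 0.12 (SE 0.26, 95% interval -0.45 to 0.69), or 0.19 without TG2. In coefficient of variation, TG and WT had 12.45% and 77.85% for Pdk4, 20.0% and 65.8% for Angptl4, and 27.0% and 39.55% for Ucp3. Over the 35 genes the median coefficient of variation was 14.09% in TG and 14.04% in WT, and it was larger in TG for 18 genes and in WT for 17. The difference in spread between the groups was not tested.

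**Figure D3:**
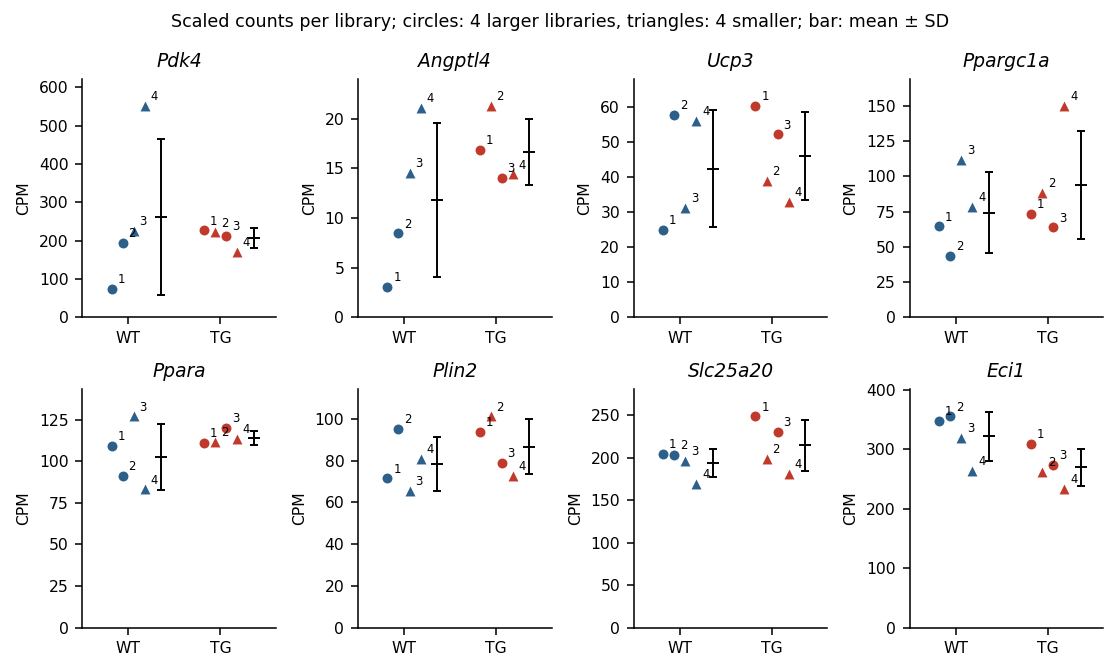
Scaled counts (CPM) in every library for 8 genes with small unadjusted p or wide spread, with the library number beside each point, circles for the 4 larger libraries, triangles for the 4 smaller ones, and bars for mean ± SD. WT1 and WT4 mark the ends of the WT range of Pdk4 and Angptl4, and the TG points of Ppara lie within 111 to 120 CPM.

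Pdk4 and Angptl4 were related over the 8 libraries on the log2 CPM scale, with Pearson's r = 0.84 (exact permutation p = 0.0158, adjusted over 4 gene pairs 0.0632) and Spearman's rho = 0.79 (exact permutation p = 0.0279, adjusted 0.0558). Neither passed 0.05 after adjustment, and r was 0.43 without WT1 and WT4, so the relation rests on those libraries. Pdk4 and Ucp3 had r = 0.67 (exact permutation p = 0.0555, adjusted 0.0764) and rho = 0.52 (exact permutation p = 0.197, adjusted 0.263), and r was 0.22 without the same libraries. Pdk4 and Angptl4 were also higher on average in the smaller libraries (log2 difference -0.68 and -0.95, larger minus smaller), and the sets overlapped. The part of library size in their r was not tested. Within the sets by library size, 4 libraries each are too few for a value.

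Fits were also made within the 4 larger and the 4 smaller libraries, with 2 TG and 2 WT in each. Log2 fold changes differed most between the sets for Angptl4, Pdk4 and Ucp3. They were close for Ppargc1a (0.34 in the larger and 0.33 in the smaller) and Ppara (0.2 and 0.1). In the larger libraries Angptl4 was higher in TG, at 16.8 and 14.04 CPM in TG1 and TG3 against 3.09 and 8.46 CPM in WT1 and WT2. The log2 fold change was 1.43 (edgeR quasi-likelihood test, Benjamini-Hochberg adjusted p = 0.0433). It was the only 1 of the 35 genes called there, where 58 of 12754 genes were called, or 0.455%. In the smaller libraries the Angptl4 values were 21.3 and 14.4 CPM in TG2 and TG4 and 14.6 and 21.1 CPM in WT3 and WT4, a log2 fold change of 0.00. The difference between the sets, tested as an interaction over all genes, was 1.43 (SE 0.46, unadjusted p = 0.00866, edgeR adjusted p = 0.856) and was not called. Pdk4 had log2 fold changes of 0.71 in the larger and -0.98 in the smaller libraries, an interaction of 1.70 (SE 0.55, unadjusted p = 0.00878, edgeR adjusted p = 0.856). For Ucp3 the values were 0.45 and -0.28 (interaction unadjusted p = 0.124 in edgeR). Slc27a1 also had opposite signs, at -0.25 and 0.09 (interaction unadjusted p = 0.031, adjusted p = 0.937 in edgeR). The interaction was called for 0 of 12670 genes, with 624 at an unadjusted p under 0.05.

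Library size separated these genes more often than genotype did. For 18 of the 35, all 4 larger libraries lay on one side of all 4 smaller ones, but the same held for 29.9% of all genes tested (3783 of 12670). The separation is a description, since the sets were formed from the library totals and not from the labels. Higher in the larger libraries were 10 genes, namely Slc27a1 (log2 difference 0.46, larger minus smaller), Etfb (0.40), Cpt1b (0.36), Mlycd and Acads (0.33 each), Acaa1a (0.31), Acadvl (0.30), Echs1 (0.29), Cpt2 (0.27) and Slc25a20 (0.25). The other 8 were higher in the smaller libraries, and these were Cd36 (-0.81), Ppargc1a (-0.78), Lpl (-0.58), Etfa (-0.36), Acsl1 (-0.34), Etfdh (-0.29), Acadm (-0.27) and Acadl (-0.20). Cd36 was at 547.8 to 671.5 CPM in the larger libraries and 938.6 to 1233 CPM in the smaller ones. Enzymes of the same complex or the same step thus stood on opposite sides, as Etfa against Etfb and Acadm and Acadl against Acadvl and Acads. The count was 17 of 35 with the deposited FPKM values and 19 of 35 without TG2.

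**Figure D4:**
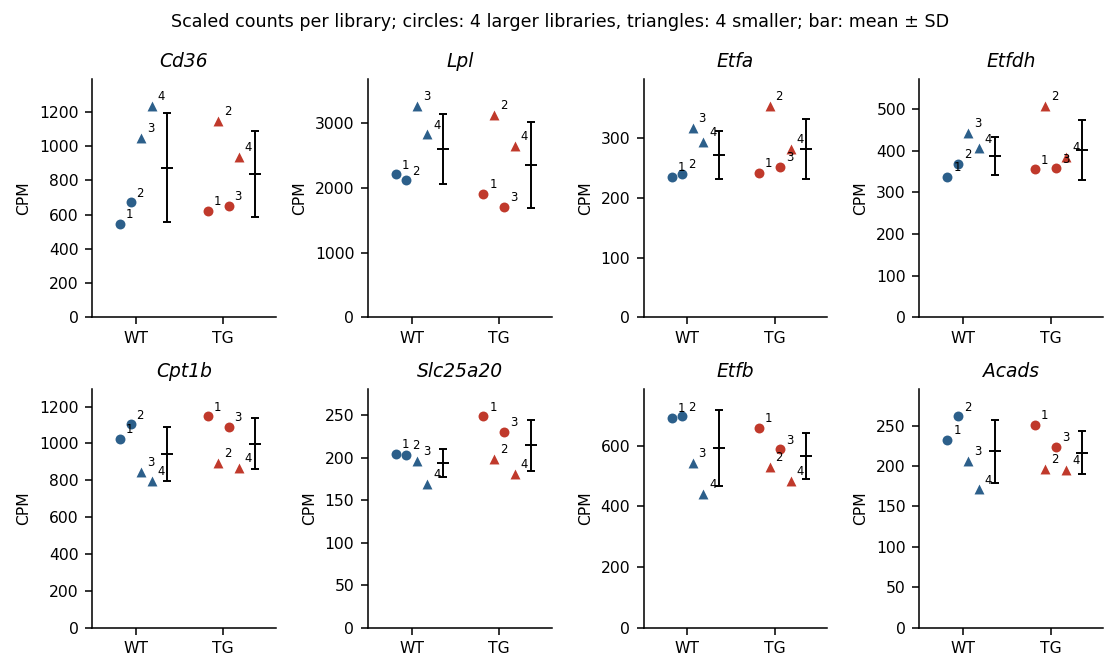
Scaled counts (CPM) of 8 genes in every library, with the library number beside each point, circles for the 4 larger libraries, triangles for the 4 smaller ones, and bars for mean ± SD. In each panel the circles and triangles do not overlap, whereas WT (blue) and TG (red) do, and the top row is high in the smaller libraries where the bottom row is low.

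The transcripts on the opposite sides differed in base composition. The 10 genes higher in the larger libraries had a median GC content of 55.5% (50.1% to 61.0%), and the 8 higher in the smaller libraries had 45.0% (38.2% for Cd36 to 49.6% for Acsl1). The median was 51.3% over the 35 genes and 50.7% over all genes with a value. Across the 35 genes, the log2 difference by library size and GC content had Pearson's r = 0.76 and Spearman's rho = 0.85, and across 12557 tested genes r = 0.67 and rho = 0.71. Genes share the same 8 libraries and are not independent replicates, so these are descriptions only. What made the libraries differ was not tested. Each group holds 2 libraries of each set, and adding the set to the edgeR model called 0 of the 35 genes between TG and WT, beside 28 of 12670 genes (0.221%).

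**Figure D5:**
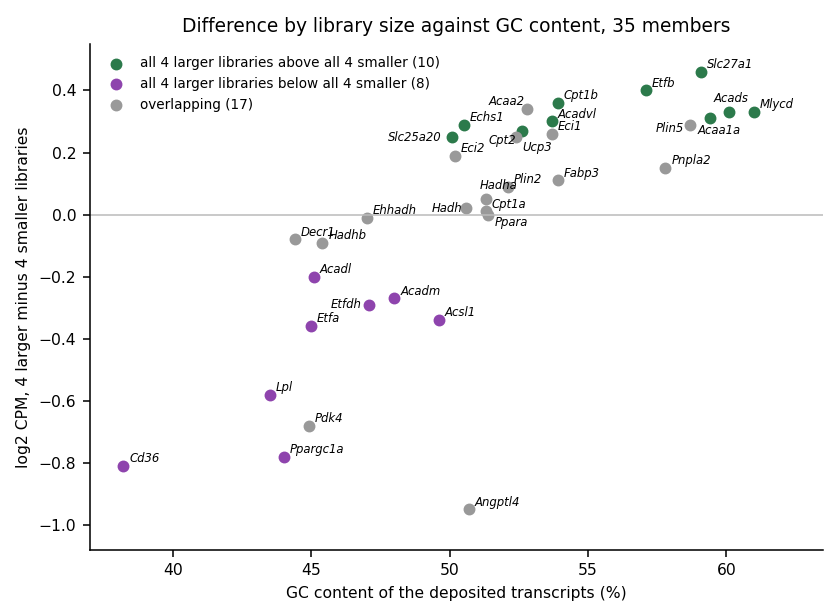
GC content of the deposited transcripts (horizontal, %) against the log2 CPM difference of the 4 larger minus the 4 smaller libraries (vertical) for the 35 genes, coloured by whether the sets of libraries separate. Genes separated upward lie at 50.1% GC or more, and those separated downward at 49.6% or less.

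Other genes of the pathway were read from 7 lists of 107 genes, of which 94 passed the filter. None of the 94 was called between TG and WT by edgeR or by DESeq2, and 7 had an unadjusted p under 0.05 in edgeR. Their log2 fold changes were above 0 for 47 and below 0 for 47. TG and WT libraries did not overlap for 3 of the 94, all with TG higher, beside the 2.51% over all genes.

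Acot1, a cytosolic acyl-CoA thioesterase and a PPAR-alpha target, averaged 19.5 ± 6.79 CPM over the TG and 12.9 ± 2.60 CPM over the WT libraries (SD, n = 4 each), a log2 fold change of 0.60 (SE 0.23). Over all 8 libraries Acot1 was not called (edgeR adjusted p = 0.9995). In the larger libraries alone its value was 0.92 (edgeR adjusted p = 0.0241) and in the smaller ones 0.15 (edgeR adjusted p = 0.9853). Acot1 may share reads with near-identical Acot2, which leaves both levels uncertain. G0s2, an inhibitor of the lipase encoded by Pnpla2, was lower in TG in the larger libraries (log2 fold change -0.64, edgeR adjusted p = 0.0383). Its value was 0.12 in the smaller ones and -0.32 over all 8 (edgeR adjusted p = 0.9995). Acot1 and G0s2 were the 2 of 94 called in the larger libraries, where 58 of 12754 genes were called, or 0.455%. The interaction with the set was called for 0 of 12670 genes, so for neither of them. Of the 7 tested genes in the list of PPAR targets, 4 were above 0 and 3 below, and Txnip, the most abundant, averaged 671 ± 119 CPM over the TG and 608 ± 163 CPM over the WT libraries (SD, n = 4 each).

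In the peroxisomal list, 13 of 16 genes were tested, with 9 log2 fold changes above 0 and 4 below. Catalase (Cat), which clears the peroxide that peroxisomal oxidation makes, averaged 332 ± 37.8 CPM over the TG and 283 ± 34.4 CPM over the WT libraries (SD, n = 4 each). Of 15 other mitochondrial genes, 4 were above 0 and 11 below. Among them, Acot2, a mitochondrial thioesterase, averaged 111 ± 8.56 CPM over the TG and 95.3 ± 4.75 CPM over the WT libraries (SD, n = 4 each), Acot13 had a log2 fold change of -0.04 that was -0.23 without TG2, and Mmut one of -0.18 that was -0.32 without TG2.

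The 9 tested genes of the uptake list had 3 values above 0 and 6 below. Fabp4, the binding protein of endothelium and fat, was the most abundant at 708 FPKM and averaged 440 ± 162 CPM over the TG and 442 ± 92.7 CPM over the WT libraries (SD, n = 4 each). Its TG2 value of 683 CPM was above the other 3 TG libraries at 353 to 364 CPM, and the log2 fold change of -0.009 became -0.30 without TG2. Gpihbp1, which anchors lipoprotein lipase on capillaries, had a log2 fold change of -0.17, and Fabp5 one of -0.10. In the activation and carnitine list, 7 of 14 were above 0. Crat, the carnitine acetyltransferase, averaged 947 ± 98.5 CPM over the TG and 919 ± 77.7 CPM over the WT libraries (SD, n = 4 each). Acsl6, an acyl-CoA synthetase known from brain, was at 4.31 to 6.03 CPM in TG and 5.32 to 12.4 CPM in WT, and its log2 fold change was -0.73 (SE 0.26). Acaca, an acetyl-CoA carboxylase of fat synthesis, had a log2 fold change of 1.598 that was 0.06 without TG2, where it stood at 178 CPM.

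Of the 14 tested droplet genes, 6 were above 0 and 8 below. Dgat2, which makes triglyceride, averaged 424 ± 69.2 CPM over the TG and 488 ± 97.8 CPM over the WT libraries (SD, n = 4 each). Lipe, hormone-sensitive lipase, had a log2 fold change of 0.425 (SE 0.175) that was 0.22 without TG2, and Gpam, the first enzyme of glycerolipid synthesis, one of 0.25. The 23 regulators had 14 values above 0 and 9 below, with a median of 0.05. The kinase gene Pdk2 averaged 956 ± 115 CPM over the TG and 969 ± 111 CPM over the WT libraries (SD, n = 4 each). Ppard, the receptor related to PPAR-alpha, had a log2 fold change of -0.17 and the coactivator gene Med1 one of 0.21.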

How the data were processed

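RNA of 8 mouse heart samples, 4 TG and 4 WT, was sequenced after polyA enrichment, per the labels' protocols, and groups and replicate numbers were taken from the titles. Every deposited table holds, per the file headers, an NCBI Gene number, an expected count (an estimated number of fragments, not normalized) and the FPKM computed by the authors. The submitters' processing notes list Bowtie2 and mm8 but give neither a role, and the counting program and its use of strand are not given in the sources used here. Genes not listed in a library were taken as 0. Of 18215 gene numbers, 18174 were matched to a symbol. The promoter sequences come from RefSeq's table for GRCm38.p6, another build, and no coordinate of the deposited data was used.

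Expected counts were rounded. Genes were kept with filterByExpr (minimum count 10, minimum total 15), and TG and WT were compared with edgeR 4.0.16 (R 4.3.3), TMM scaling, the quasi-likelihood F-test with group alone, two-sided, and Benjamini-Hochberg adjustment at 0.05 over 12670 genes. Standard errors (SE) were the size of the log2 fold change over the root of F, and log2 CPM values used a prior count of 2. Fold changes below compare TG with WT. In a library, 3 counts correspond to 0.380 to 0.479 CPM, which covers counting error only, since fragments without molecular identifiers are not independent molecules. No 2 libraries of a group agreed within sampling noise (smallest chi-square per degree of freedom 4.29). DESeq2 1.42.0, limma 3.58.1 on log2(FPKM + 1) and log2(FPKM + 0.1), voom, other scaling and filters, a replicate block and reduced sets of libraries were tried as alternatives. The scripts were tested on simulated counts.

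GC content was taken from GENCODE transcripts matched to the deposited transcript accessions, for 99.1% of tested genes. The 35 genes, the other lists and the tests were chosen with earlier results of these data known. Values per library are given for the most abundant gene of each role, for the 10 smallest unadjusted p and for a gene with an outlying library, and also for Cd36, Etfa and Ucp3, which were chosen after their values were seen. Of each other list, the most abundant gene and those with the 2 smallest p are named, and G0s2 was added after its value was seen. Not every gene taken by this rule is reported here. The interaction with the set of libraries by size and the counts of non-overlapping libraries under other scalings were also added then.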

Additional observations from a re-analysis of the deposited data

Results flagged for a closer look

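Acadl, the long-chain acyl-CoA dehydrogenase gene, had an outlying TG library. TG2 measured 851.8 CPM against 707.3 to 731.0 CPM in the other 3 TG libraries, and the gap was 0.836 of the group's range, just above Dixon's 95% limit for 4 values. It was the only flag among 70 groups of 4 (35 genes in TG and in WT), where chance flags about 1 in 20. TG2 is also the library with white and brown fat and atrial transcripts, and their part in its Acadl level was not tested.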

How the results depend on the processing

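Of the 35 genes, 0 passed the threshold in 19 of the 20 alternative fits, the 8 that leave out a library included, and 1 (Angptl4) passed with the 4 larger libraries only. The number of genes called over all genes, 2 in the reported fit, was 15 with DESeq2 and 4 with no filter on low counts. It was 0 with Carns1 left out, and 1 each with limma after adding 1 or 0.1 to FPKM before the log. With the set of libraries (larger or smaller) as a covariate it was 28. It was 58 in the larger libraries, 4 in the smaller ones, and 1 to 3 when any single library was left out. With TG and WT replicates of the same number as a block it was 1, with 0 of the 35 genes. Deviations of same-numbered libraries correlated between -0.28 and 0.40, and 3 of 8 libraries correlated best with their own number. Correlations between TG and WT libraries were positive within a set by library size and negative across the sets. They therefore cannot decide whether the numbers pair the libraries. The block gave log2 fold changes of 0.00 for Pdk4 and 0.67 for Angptl4. The median over the 35 genes lay between -0.024 (without TG2) and 0.056 (without TG4) when a library was left out, and the number of positive values between 14 and 29. Fits changed the sign of 0 to 11 of the 35 values, none of them called in either fit. The largest shift was 1.04, for Pdk4 in the larger libraries. The cause of these differences was not tested. How far depth limited the precision was not tested.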
